A study of Mus musculus with 8 samples.

Results

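The 10 genes described here encode the constant regions of antibodies and the chain that joins antibodies into polymers. They are Ighm, Ighd, Ighg3, Ighg1, Ighg2b, Ighg2c, Ighe and Igha for the heavy chains, Igkc for the kappa light chain and Jchain for the joining chain. They were taken by name, and all 10 were found among the 32285 genes of the deposited matrices. Antibody-producing cells were chosen per library from other genes and from Jchain: a plasma barcode held at least 50 UMIs of Jchain and 3 of Mzb1, and a B barcode held at least 3 UMIs of Cd79a and Cd79b together and fewer than 50 of Jchain. A UMI, or unique molecular identifier, marks 1 captured RNA molecule, and a barcode marks 1 droplet or well, normally 1 cell. Of 25172 kept barcodes in 4 libraries, 117 were plasma barcodes and 2863 were B barcodes. The isotype of a barcode was the heavy chain gene with the most UMIs.

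A B cell that has not switched makes heavy chains of the mu and delta classes from 1 transcript that starts upstream of Ighm. Class switching deletes the DNA between the variable region and a downstream constant gene, so that the same variable region is then joined to a gamma, epsilon or alpha chain. Plasma cells secrete the product. The J chain links secreted IgM and IgA into polymers, which epithelial cells of mucosae and salivary glands carry into their secretions with the polymeric immunoglobulin receptor encoded by Pigr.

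The study sorted cells positive for CD45, a leukocyte surface protein, from mice of about 12 weeks, 4 of them SS and 4 controls. The groups are control gland, SS gland, control lymph node and SS lymph node, where the gland is the submandibular gland and the nodes drain it, and each has 1 gene expression sample and 1 T cell receptor sample. The labels do not spell out SS, give no strain, and do not say whether the mice of a group were pooled. The receptor samples were not analysed here. The 4 expression libraries are called C1 to C4 in the files, and no label or header tied any of them to a genotype or a tissue. Each library is therefore described on its own, with 1 library per condition at most, no replicate and no test. All intervals are exact 95% intervals (Clopper-Pearson for shares, Poisson for counts), which cover counting error only. For a count of 0 the limit printed as "up to" is 3 counts of the total instead.

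The libraries held between 37902916 and 77819179 UMIs, and kept barcodes had median depths between 4939 and 8076 UMIs. C1 was rich in barcodes with macrophage marker UMIs (2810 of 5616), and T barcodes made up the largest class in C2, C3 and C4. Pairs of libraries shared between 31 and 85 kept barcodes. C1 held 44 plasma barcodes (0.783% of kept barcodes, interval 0.570 to 1.05), C2 held 22 (0.434%, 0.272 to 0.657), C3 held 46 (0.539%, 0.395 to 0.718) and C4 held 5 (0.0839%, 0.0273 to 0.196). For B barcodes the numbers from C1 to C4 were 66 (1.18%), 14 (0.276%), 759 (8.90%) and 2024 (34.0%). The share of B barcodes is thus highest in C4, where the share of plasma barcodes is lowest. Doublets were not removed: at least 3 UMIs of the T cell genes Cd3d, Cd3e and Cd3g were present, from C1 to C4, in 1 of 66, 3 of 14, 103 of 759 and 127 of 2024 B barcodes. The macrophage genes of the marker list also summed to 7372 UMIs per 1000000 (CPM) in the 14 B barcodes of C2.

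The heavy chain genes lie in 1 row on chromosome 12 of the mouse genome (GRCm38.p6), in the order in which a B cell can switch through them. Ighm is at positions 113418826 to 113422730 and Ighd at 113407535 to 113416324. Ighg3 (113357442 to 113361232), Ighg1 (113326541 to 113330523), Ighg2b (113304314 to 113307933) and Ighg2c (113287389 to 113288932) follow. Ighe (113269263 to 113273248) and Igha (113256204 to 113260236) close the row, 166.5 kb from the start of Ighm to the end of Igha. Igkc is on chromosome 6 (70726435 to 70726754) and Jchain on the minus strand of chromosome 5 (88519809 to 88527897).

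Jchain is the member whose UMIs defined the plasma gate and the only one of the 10 with an entry in the RefSeq promoter table, so its promoter is shown. The sequence runs 5′ to 3′ on the minus strand of GRCm38.p6, chr5:88527883-88528147, from 250 bases before the transcription start to 15 bases after it. Capitals mark the letters CACCTG, a form of the E-box bound by basic helix-loop-helix factors, at bases 6 to 11 after the start.

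Jchain promoter: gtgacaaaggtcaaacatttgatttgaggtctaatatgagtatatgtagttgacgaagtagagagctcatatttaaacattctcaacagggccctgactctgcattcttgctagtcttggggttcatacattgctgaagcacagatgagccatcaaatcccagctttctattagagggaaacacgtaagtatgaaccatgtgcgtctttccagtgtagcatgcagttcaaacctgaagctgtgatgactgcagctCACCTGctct

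The full window of 300 bases was searched on both strands for 2 motifs. Of the forms of the E-box, only 1 was searched (CAGGTG, or CACCTG on the other strand), and it is present in 6640 of 32851 windows of this length (20.2%). The octamer of immunoglobulin promoters (ATTTGCAT, or ATGCAAAT) is present in 570 of them (1.74%), and its letters are not in the Jchain window.

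The plasma barcodes of C1 and C2 were IgA throughout, and those of C3 were mostly IgG. Igha, the constant gene of the main secretory isotype, led in 44 of 44 plasma barcodes of C1 (100%, 92.0 to 100) and in 22 of 22 of C2 (100%, 84.6 to 100). No IgG-led barcode was found there, which allows a share of up to 6.82% in C1 and 13.6% in C2. In C3, Ighg1 led in 15 of 46 (32.6%, 19.5 to 48.0), Igha in 13 (28.3%, 16.0 to 43.5), Ighg2b in 11 (23.9%, 12.6 to 38.8) and Ighg2c in 5 (10.9%, 3.62 to 23.6). The 4 gamma genes together led in 31 of 46 (67.4%, 52.0 to 80.5). Ighm, the constant gene of secreted IgM, and Ighe, that of IgE, led in 1 barcode each (2.17%). Ighg3 and Ighd led in none, which allows up to 6.52% for each. The 5 plasma barcodes of C4 were led by Ighg1 (2), Ighg2b (2) and Ighg2c (1).

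**Figure D1:**
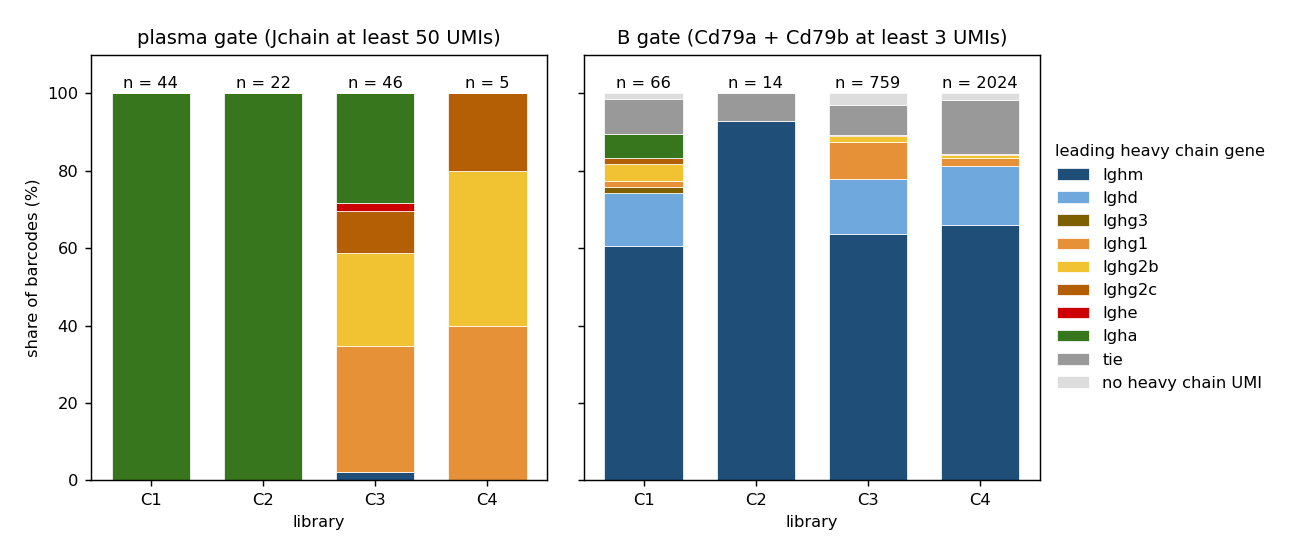
Share of barcodes (percent, vertical axis) by the heavy chain gene with the most UMIs, for the plasma gate and the B gate of each library, with the number of barcodes. Igha fills the plasma bars of C1 and C2, the gamma genes hold 67.4% of C3, and Ighm holds most of every B bar.

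Within a plasma barcode of C1, Igha ranged from 163 to 3086 UMIs with a median of 1352.5. Jchain ranged from 203 to 3166 UMIs with a median of 1823, and Igkc from 18 to 2506 with a median of 1057. All immunoglobulin genes together, variable genes included, took 14.8% to 71.0% of a barcode's UMIs, with a median of 60.8%. More than 1 in 2 RNA molecules captured from the median barcode therefore came from antibody genes.

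C2 gave values of the same size. Igha ranged from 394 to 2537 UMIs (median 1239), Jchain from 548 to 3261 (median 2053.5), and Igkc from 0 to 1822 (median 1003.5). Immunoglobulin genes took 42.6% to 71.5% of the UMIs, with a median of 61.2%. The ranges of C1 and C2 overlap for each of these measures.

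C3 held 38 plasma barcodes with 100 or more Jchain UMIs, of which 25 were IgG, 12 IgA and 1 IgE. In the 25 IgG barcodes the leading gamma gene ranged from 18 to 3104 UMIs (median 1067), Igkc from 183 to 2038 (median 1038), and the immunoglobulin share from 10.8% to 78.8% (median 61.9%). The barcode with 18 UMIs, of Ighg2b, held 2038 Igkc UMIs and 66.3% immunoglobulin, so its isotype call is uncertain. In the 12 IgA barcodes Igha ranged from 198 to 3555 UMIs (median 792) and the immunoglobulin share from 15.4% to 74.0% (median 56.0%). The IgE barcode held 9199 UMIs, of which 425 were Ighe, 208 were Jchain and 43.6% were immunoglobulin. These barcodes overlap with those of C1 and C2 in immunoglobulin share.

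The plasma label did not hold for the barcodes closest to the Jchain threshold. The 13 barcodes with 50 to 99 Jchain UMIs, 8 in C3 and 5 in C4, had immunoglobulin shares of 0.458% to 8.32% (median 0.977%), against 10.8% to 78.8% (median 60.4%) in the 104 barcodes with 100 or more. Sdc1, the plasma cell surface proteoglycan CD138, was found in 0 of the 13 and 98 of the 104. The B cell surface gene Ms4a1 (CD20) was found in 12 of 13 against 23 of 104, and the proliferation gene Mki67 in 13 of 13 against 37 of 104. Their median depth was 56868 UMIs, against 33817.

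Of those 13 barcodes, the 8 of C3 were led by Ighg1 (6), Ighm (1, with 42 UMIs) and Igha (1). The Igha barcode carried 152 Igha UMIs and 13 UMIs of Cd3e, a T cell receptor component. The 5 of C4 had 5 to 46 UMIs of their leading gene and 45 to 130 of Mki67 (median 95), so no plasma barcode of C4 reached the lowest immunoglobulin share of the 104. The single IgM-led plasma barcode of C3 is one of them, and 0 IgM-led barcodes remained among those with 100 or more Jchain UMIs.

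Jchain values in C1 leave a gap, with 0 kept barcodes from 50 to below 200 Jchain UMIs, 5 from 200 to below 500, and 39 at 500 or more. The 39 all had Sdc1, as did 2 of the 5, which had immunoglobulin shares of 14.8% or more. Just outside the gate, C3 held 27 barcodes with 20 to 49 Jchain UMIs, 24 of them with Mki67, 0 with Sdc1 and 26 of them in the B gate. C4 held 4 such barcodes, 4 of them with Mki67 and 0 with Sdc1. C3 also held 1 barcode with 1066 Igha, 1636 Igkc and 51 Jchain UMIs that missed the gate with 2 Mzb1 UMIs, and C2 held 1 barcode with 54 Jchain UMIs that missed it likewise.

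**Figure D2:**
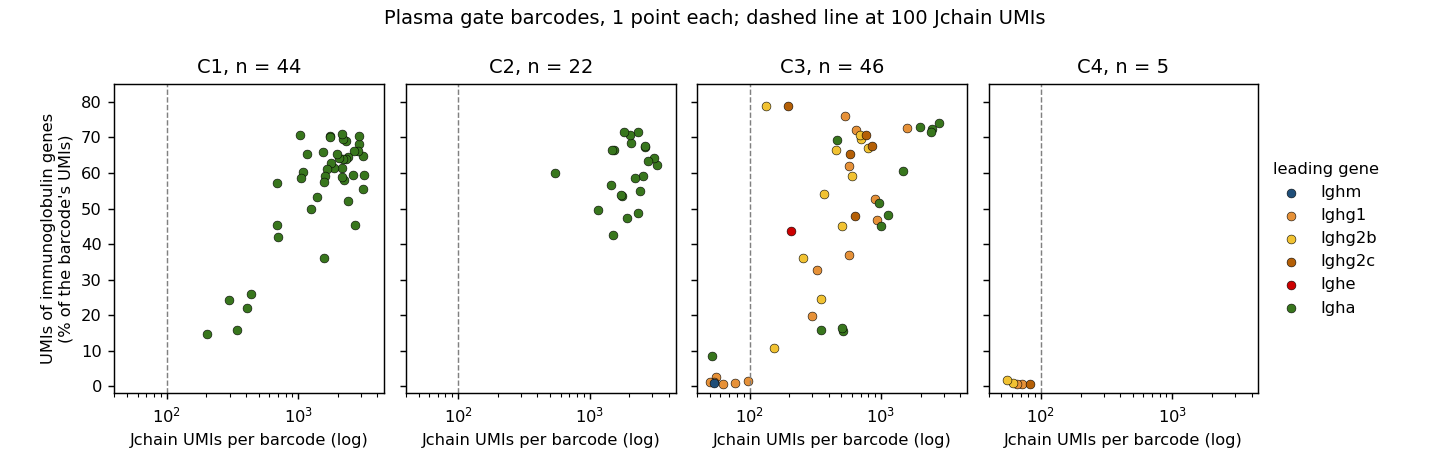
Each point is 1 plasma barcode, with its Jchain UMIs (horizontal, log axis) and the percent of its UMIs from immunoglobulin genes (vertical), in 1 panel per library and coloured by leading heavy chain gene. The dashed line marks 100 Jchain UMIs; the 13 barcodes left of it have shares of at most 8.32%, and those right of it of at least 10.8%.

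In C3 the median level of Jchain was higher beside IgA than beside IgG. Jchain ranged there from 134 to 1579 UMIs (median 570) in the 25 IgG barcodes and from 350 to 2734 (median 1064) in the 12 IgA barcodes. As a share of all UMIs it was 0.344% to 3.17% (median 1.59%) beside IgG and 1.18% to 7.74% (median 4.68%) beside IgA. The ranges overlap, between 1.18% and 3.17%. The IgA barcodes of C1 had 1.24% to 8.52% (median 5.72%) and those of C2 3.88% to 7.77% (median 5.05%), and every one of C2 lay above the highest IgG barcode of C3. The gate itself asked for Jchain, so its presence in these barcodes is no result, and barcodes with less of it are not among those counted.

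Among the gamma genes of C3, Jchain was 297 to 1579 UMIs (median 570) in the 9 Ighg1 barcodes, 134 to 797 (median 451) in the 11 Ighg2b barcodes and 195 to 846 (median 638) in the 5 Ighg2c barcodes. These ranges overlap for all pairs. Taken over UMIs other than immunoglobulin, so that a barcode's antibody load does not enter, the median Jchain shares of the IgA barcodes were 14.5% (C1), 15.9% (C2) and 8.95% (C3), and that of the IgG barcodes of C3 was 4.18%. The order is the same on both scales except for C1 and C2, which change places.

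Most plasma barcodes of C1, C2 and C3 carried almost only 1 heavy chain. The leading gene held a median of 99.8% of heavy chain UMIs in C1 (lowest 93.1%), 100% in C2 (lowest 97.9%) and 99.6% in C3 (lowest 72.5%). In C4 the median was 85.3% (lowest 66.7%), in barcodes that all had fewer than 100 Jchain UMIs. The lowest of C3 was also such a barcode, and with 100 or more Jchain UMIs the lowest there was 74.6%. A second heavy chain gene with at least 5 UMIs was present in 42 barcodes, of which C1 had 15 of its 44, C2 had 5 of 22, C3 had 20 of 46 and C4 had 2 of 5. In 38 of the 42 the second gene lay upstream of the leading one in the chromosome 12 row, that is, on the Ighm side. Igha is last in the row, so the second gene of the 26 cases led by Igha could fall on no other side. Of the other 16 cases, 12 had the second gene upstream.

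In C1 the second gene beside Igha was Ighg2c in 8 barcodes (5 to 100 UMIs), Ighg2b in 3 (5 to 27), Ighm in 2 (8 to 12), Ighg1 in 1 (13) and Ighe in 1 (6). In C2 it was Ighg2b in 3 (8 to 24) and Ighg3 in 2 (6 to 21). Both libraries thus had IgG transcripts in a minority of IgA barcodes although no barcode was led by an IgG gene.

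In C3, where genes on both sides exist for the gamma genes, Ighm stood second to Ighg1 in 4 barcodes (8 to 31 UMIs) and to Ighg2b in 2 (15 to 32), and Ighg2b stood second to Ighg2c in 4 (8 to 26). The 4 exceptions were Ighe with 18 UMIs and Ighg2b with 5 beside Ighg1, and Igha with 14 and Ighg2c with 8 beside Ighg2b. Ighg2b and Ighg2c are similar in sequence, so counts of either beside the other are uncertain. How far free RNA of other plasma cells contributes to second genes was not tested.

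Summed over plasma barcodes, the level of Igha from C1 to C4 was 40786 CPM (40455 to 41119), 34332 (33935 to 34733), 7581 (7451 to 7714) and 11.3 (2.34 to 33.1). The gamma genes were concentrated in C3, with Ighg1 at 8342 CPM, Ighg2b at 6720 and Ighg2c at 4769. In C1 the values of these 3 genes were 9.13, 32.3 and 154 CPM. Ighg3 had 0 UMIs in plasma barcodes of C1 and C3, 32.5 CPM in C2 and 64.2 CPM in C4. Ighe stood at 265 CPM in C3 (241 to 291), which includes the IgE barcode, at 4.21 CPM in C1, and had 0 UMIs in C2 and C4.

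In plasma barcodes Jchain, which was used in the gate, stood at 54866, 54534, 18344 and 1274 CPM from C1 to C4. The intervals of C1 (54482 to 55252) and C2 (54032 to 55038) overlap, and those of C3 and C4 lie apart from them and from each other. Igkc followed the same order, at 30528, 25197, 22732 and 559 CPM, with no overlap between intervals. Ighm was low in all 4, at 22.5, 9.64, 124 and 41.6 CPM. Ighd had 0 UMIs in the plasma barcodes of every library, and the upper bounds from C1 to C4 are 2.59, 4.45, 2.18 and 13.9 CPM. All 5 plasma barcodes of C4 and 8 of the 46 of C3 had fewer than 100 Jchain UMIs, where the plasma label did not hold. The C4 values summed over plasma barcodes, for every gene, are therefore not levels of plasma cells.

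**Figure D3:**
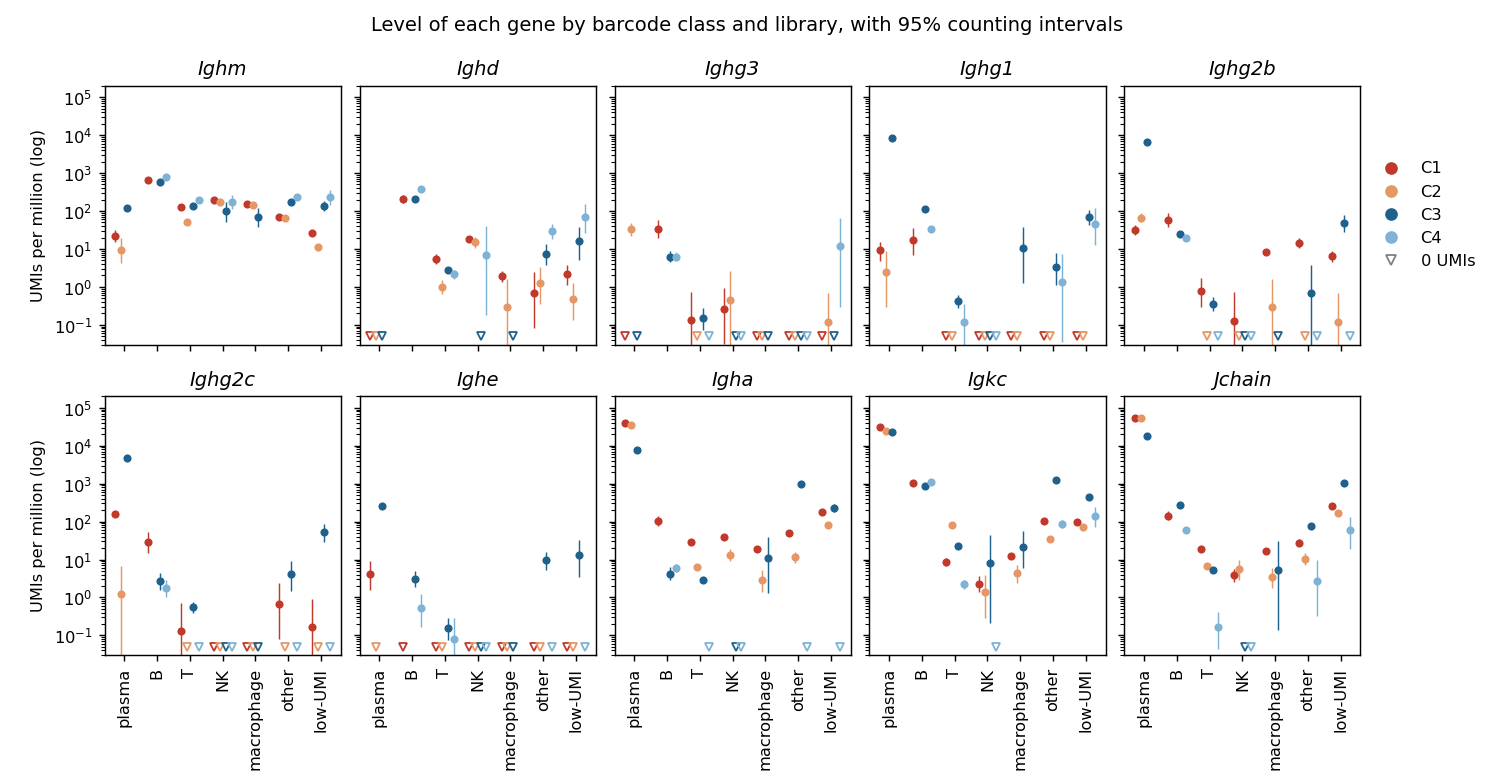
Summed level of each of the 10 genes (CPM, log axis) by class of barcode and library, for classes of at least 20 barcodes, with 95% counting intervals; open triangles mark 0 UMIs. Igha and Jchain reach their highest values in plasma barcodes of C1 and C2, and Ighd is found in B barcodes and at 0 in plasma barcodes.

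Most plasma barcodes had more kappa than lambda UMIs. By the constant genes these were 43 of 44 barcodes of C1, 20 of 22 of C2, 45 of 46 of C3 and 3 of 5 of C4. By the variable genes they were 43, 20, 45 and 5. The exceptions of C3 were different barcodes: 1 had 21 UMIs each of Igkc and of the lambda constant genes, and the other had 1754 Igkc against 1031 lambda constant UMIs but 17012 lambda against 12173 kappa variable UMIs. The 5 barcodes of C4 were among those below 100 Jchain UMIs. In the barcodes of C1 and C2 with more lambda variable UMIs, the lambda constant gene Iglc1 was at 456 UMIs in C1 and had a median of 651 UMIs in C2 (highest 778).

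In B barcodes the constant genes and the variable genes gave opposite answers. By constant genes, lambda (Iglc1, Iglc2 and Iglc3, on chromosome 16) exceeded Igkc in 1640 barcodes of C4 against 275 the other way, in 527 against 155 of C3, in 45 against 20 of C1 and in 8 against 1 of C2. By variable genes, kappa exceeded lambda in 1843 against 153 barcodes of C4, 647 against 81 of C3, 61 against 5 of C1 and 10 against 0 of C2.

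The barcodes with a clear kappa variable gene (at least 5 variable gene UMIs and at least 5 times as many kappa as lambda) show the same split within single barcodes. Their median UMIs in C4, over 1780 barcodes, were 5 for Igkc, 6 for Iglc2 and 4 for Iglc3, and in C3, over 609 barcodes, 7, 5 and 4. In barcodes with a clear lambda variable gene the medians for Igkc were 0 in C1 (4 barcodes), C3 (58) and C4 (106), and for Iglc2 they were 4.5, 5 and 5. Iglc2 UMIs were therefore about as many beside a kappa as beside a lambda variable gene, while Igkc UMIs went with kappa variable genes. Iglc2 and Iglc3 are near-identical copies, so the split between them is uncertain. The light chain class of a B barcode thus depended on which genes were counted.

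**Figure D4:**
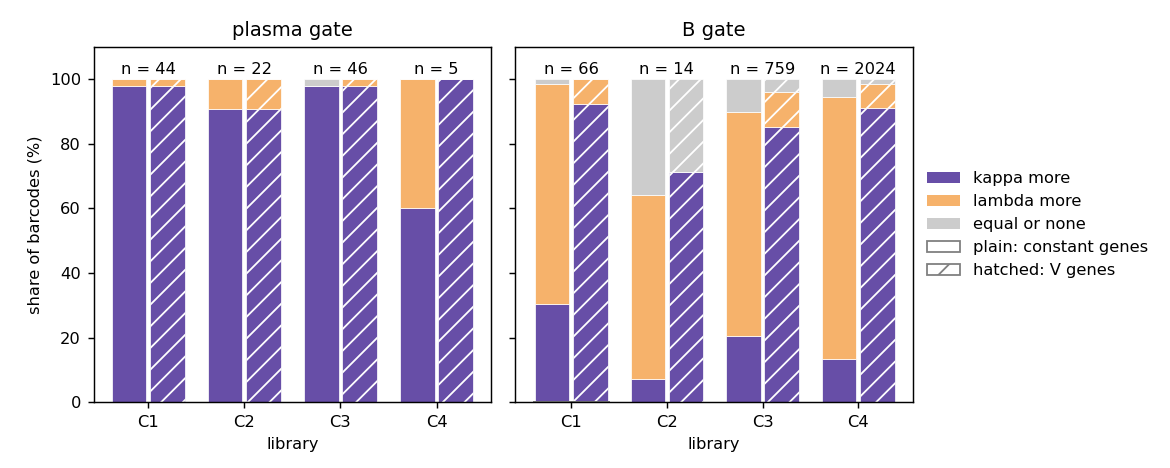
Share of barcodes (percent, vertical axis) with more kappa, more lambda or equal UMIs, by constant genes (plain bars) and by variable genes (hatched bars), for plasma and B barcodes of each library. Both measures give mostly kappa in plasma barcodes, with 3 of 5 (constant) and 5 of 5 (variable) in C4, while in B barcodes the constant genes give mostly lambda and the variable genes mostly kappa.

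The genes of antibody secretion set the plasma barcodes apart from B barcodes. For the 25 IgG plasma barcodes of C3, each gene's level over UMIs other than immunoglobulin was compared with that in the 641 B barcodes of C3 led by Ighm, by Ighd or by both equally, and differences over 2-fold were counted. Of the 16 genes listed for the secretory programme, 16 were over 2-fold higher and 0 lower, with a median log2 difference of 4.50. Over the 9487 genes with at least 20 UMIs in both groups together, 13.2% were over 2-fold higher and 23.8% lower, with a median of -0.21. Mzb1, a chaperone of antibody assembly, stood at 8832 CPM against 384, but was used in the gate. Xbp1, the transcription factor of the secretory stress response, was at 5255 CPM against 81.8. The endoplasmic reticulum chaperone Hspa5 was at 2911 CPM against 340, and the disulfide isomerase Txndc5 at 1913 against 152. Tnfrsf17, the survival receptor BCMA, was at 139 CPM with 0 UMIs in those B barcodes.

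The surface genes of B cells differed in the other direction, with 0 of 13 listed genes higher and 12 lower (median log2 -4.52), Cd79b being the one within 2-fold. Cd79a, which is among the 12, and Cd79b were used in the B gate, so they are no result. For genes of class switching and the germinal centre, 0 of 13 were higher and 8 lower (median -1.52), among them Bcl6 and S1pr2. The 12 IgA plasma barcodes of C3 gave a like count against the same B barcodes, with 15 of 16 secretory genes higher (median 4.76), 12 of 13 surface genes lower and 5 of 13 switching genes lower. There the background was 12.8% higher and 19.5% lower of 9362 genes, with a median of -0.0048. Both comparisons share the B barcodes.

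In summed UMIs, IgG and IgA plasma barcodes of C3 also differed from each other, in genes of homing more than of secretion. The IgA set held 181033 UMIs other than immunoglobulin, and a few barcodes weigh heavily in it. IgA barcodes with immunoglobulin shares of 15.4%, 16.5% and 15.7% held 43662, 37839 and 27619 UMIs in all. The second of these gave 8 of the 20 Ccr10 UMIs of the set. The IgA levels of C3 given here and below share this limit. Over 3549 genes, 9.38% were over 2-fold higher in IgG and 6.76% lower, with a median log2 of 0.09. Of 16 secretory genes, 3 were higher in IgG (Xbp1, Sdc1 and Creld2) and 2 lower (Txndc5 and Tnfrsf17). Of the 7 homing genes with enough UMIs, 1 was higher (Cxcr4, the receptor for a bone marrow chemokine) and 4 lower (Ccr10, Itgb7, Itgb1 and Klf2), with a median of -1.04.

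Ccr10, the chemokine receptor of mucosal IgA plasma cells, stood in IgA barcodes at 383 CPM for C1 (334 to 436), 390 for C2 (326 to 464) and 110 for C3 (67.5 to 171), and in the IgG barcodes of C3 at 25.8 (12.4 to 47.4). It was found in 34 of 44, 20 of 22, 6 of 12 and 7 of 25 barcodes. The integrin gene Itgb7, whose product pairs with alpha 4 in gut homing, was at 174, 125, 530 and 124 CPM in the same order, so the IgA barcodes of C1 and C2 stood closer to the IgG than to the IgA barcodes of C3. Itga4, its partner, was at 231, 183, 265 and 278 CPM. Ccr10 was thus higher in each IgA set than in the IgG set, and Itgb7 was not. Klf2, a transcription factor of cell trafficking, was at 1380, 342, 895 and 291 CPM.

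Tnfrsf17 was at 425, 305 and 862 CPM (732 to 1008 for the last) in the IgA barcodes of C1, C2 and C3, against 139 in IgG of C3 (105 to 182). Txndc5 was at 3607, 3985 and 3861 CPM in the 3 IgA sets and 1913 in the IgG set (1778 to 2056). Both genes were lower in the IgG set than in each IgA set. Xbp1 was at 2997, 3848 and 2558 CPM in the IgA sets and at 5255 in the IgG set (5030 to 5488), above each of them. Sdc1 was at 423, 412, 133 and 325 CPM, so its order between IgG and IgA in C3 does not extend to C1 and C2.

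B barcodes were mostly unswitched in every library. From C1 to C4, Ighm led in 40 of 66 (60.6%), 13 of 14, 483 of 759 (63.6%) and 1336 of 2024 (66.0%). Ighd led in 9 barcodes of C1, in 108 of C3 (14.2%) and in 306 of C4 (15.1%). The median B barcode had 4 to 6 heavy chain UMIs, and both Ighm and Ighd UMIs were present in 54.5%, 50%, 60.1% and 72.7% of B barcodes from C1 to C4. A lead of Ighm over Ighd at this depth is a matter of few UMIs: equal counts left 58 barcodes of C3 and 280 of C4 without a call, 50 and 274 of them ties of Ighm with Ighd.

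Switched B barcodes, led by a gamma, epsilon or alpha gene, numbered 10 of 66 (15.2%, 7.51 to 26.1) in C1 and 0 of 14 (up to 21.4%) in C2. They numbered 89 of 759 (11.7%, 9.52 to 14.2) in C3 and 65 of 2024 (3.21%, 2.49 to 4.08) in C4. The intervals of C3 and C4 do not overlap. In C3, Ighg1 led in 73 (9.62%), Ighg2b in 12 (1.58%), and Ighg2c and Ighe in 1 each. Igha and Ighg3 led in none. In C4, Ighg1 led in 41 (2.03%), Ighg2b in 17 (0.840%), Ighg3 and Ighg2c in 3 each and Igha in 1. In C1, Igha led in 4, Ighg2b in 3, and Ighg1, Ighg2c and Ighg3 in 1 each. Igha led 13 plasma barcodes but no B barcode in C3. An Ighm UMI was also present in 4 of 10 switched B barcodes of C1, 24 of 89 of C3 and 10 of 65 of C4.

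Switched B barcodes carried genes of the germinal centre, the site in lymphoid tissue where B cells mutate their receptors and divide. They are compared with the 641 unswitched barcodes of C3 and 1916 of C4, which include ties of Ighm with Ighd. Depth differed between the groups, with medians of 15518 UMIs in the 89 switched and 5147 in the unswitched barcodes of C3, and of 10889 in the 65 switched and 3945.5 in the unswitched barcodes of C4. Shares were therefore also taken with every barcode thinned to 2000 UMIs, which left out 7 unswitched barcodes of C3 and 40 unswitched and 1 switched of C4.

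S1pr2, a receptor that holds B cells in the germinal centre, was found in 69.7% of switched against 8.42% of unswitched barcodes of C3 (23.6% against 2.52% thinned). In C4 it was found in 69.2% against 1.04% (32.8% against 0.373% thinned). Mki67 was found in 67.4% against 10.9% in C3 (41.6% against 6.31% thinned) and in 63.1% against 1.72% in C4 (48.4% against 0.746% thinned). Both genes were more frequent among switched barcodes in both libraries, before and after thinning.

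Ighd helped to define the groups, so its shares describe them and are no result. It was found in 3.37% against 73.5% in C3 and 1.54% against 79.6% in C4, and in none of the switched barcodes after thinning. T barcodes, which should lack Ighd, had it in 2.12% (C3, median 8283.5 UMIs) and 1.44% (C4, median 6111 UMIs), so the Ighd shares of switched barcodes are near that background. Fcer2a, the low-affinity IgE receptor CD23, differed in its order, with 75.3% against 69.7% in C3 (36.0% against 47.3% thinned) and 49.2% against 83.0% in C4 (15.6% against 65.9% thinned). Fcer2a in C3 therefore changes order with thinning.

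Jchain UMIs, below the plasma threshold by the gate, were found in 79.8% of switched against 12.2% of unswitched B barcodes of C3 (57.3% against 7.73% thinned), and in 78.5% against 0.887% in C4 (53.1% against 0.426% thinned). T barcodes had a Jchain UMI in 4.09% (C3) and 0.107% (C4). Among kept barcodes of C3, Mki67 was found in 541 of 8009 with 0 Jchain UMIs, 50 of 374 with 1 to 4, 23 of 32 with 5 to 9 and 35 of 43 with 10 to 19. In C4 it was found in 98 of 5877, 17 of 32, 10 of 20 and 17 of 19. These bins differ in class as well as in Jchain. The B gate held 602 of 8009, 57 of 374, 31 of 32 and 43 of 43 in C3. In C4 it held 1954 of 5877, 27 of 32, 20 of 20 and 19 of 19. The Mki67 shares are therefore not a comparison within B barcodes. Of the 10 switched barcodes of C1, 5 had Jchain, 3 had Mki67, 1 had S1pr2 and 0 had Ighd.

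**Figure D5:**
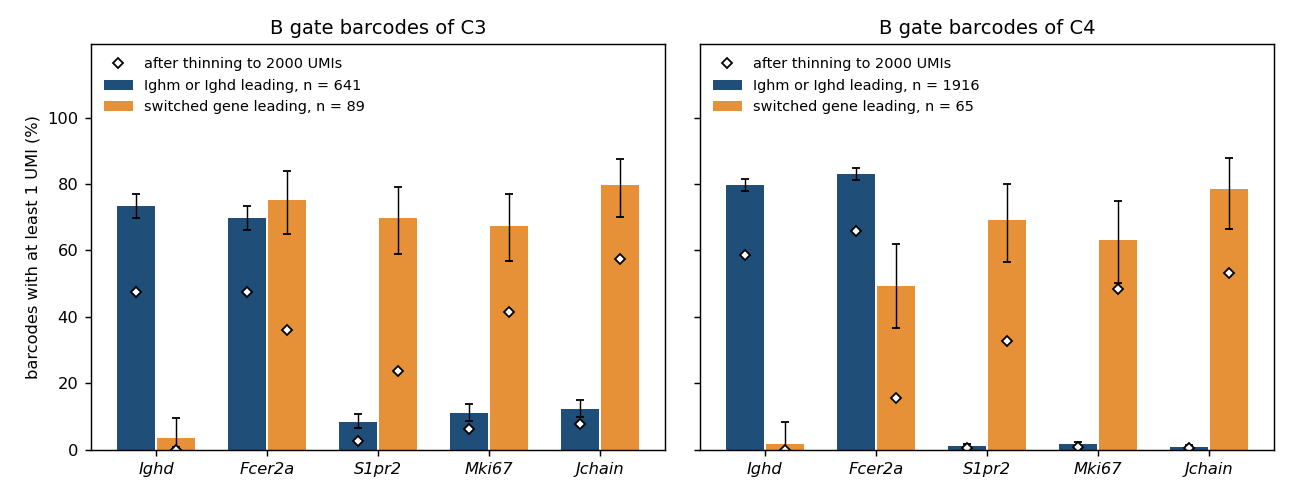
Percent of B barcodes with at least 1 UMI (vertical axis) of Ighd, Fcer2a, S1pr2, Mki67 and Jchain, for barcodes led by Ighm or Ighd and for switched barcodes of C3 and C4; diamonds give the share after thinning to 2000 UMIs. S1pr2, Mki67 and Jchain are more frequent in switched barcodes; Ighd was used to define the groups.

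The summed levels of the listed genes, over UMIs other than immunoglobulin, ran the same way. In C3, 9 of 13 genes of switching and the germinal centre were over 2-fold higher in switched than in unswitched B barcodes and 0 lower (median log2 1.02), where 7.17% of 9710 genes were higher and 9.26% lower (median 0.04). In C4, 10 of 13 were higher and 0 lower (median 1.53), where 12.3% of 10227 genes were higher and 13.6% lower (median 0.02). Bcl6, the master transcription factor of the germinal centre, was at 99.1 against 49.0 CPM in C3 and 157 against 60.5 in C4. Fas, a death receptor, was at 120 against 41.7 CPM and 135 against 9.77.

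All 4 cycling genes were over 2-fold higher in switched barcodes of both libraries, with median log2 differences of 1.53 in C3 and 4.23 in C4. Of 10 homing genes, 0 were higher and 6 lower in C3, and 1 was higher (Itgb1) and 5 lower in C4, among them Klf2, S1pr1 and Itgb7 in both. Irf4, a plasma cell transcription factor, was lower in switched barcodes of both libraries, and Sdc1 was lower in those of C4. In C3 Sdc1 was near the floor, at 0.689 CPM in switched barcodes and 0.63 CPM of all UMIs in B barcodes as a whole. Of the 14 secretory genes with enough UMIs, 1 was higher and 2 lower in C3, and 5 higher and 2 lower in C4.

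Among B barcodes as a whole, Ighm was at 651, 624, 572 and 806 CPM from C1 to C4 (788 to 824 for the last). The intervals of the first 3 (574 to 734, 477 to 801 and 554 to 591) overlap. Ighd was at 209, 81.8, 201 and 389 CPM, with overlapping intervals in C1 and C3. Ighg1 was highest in C3, at 113 CPM (105 to 121), against 34.1 in C4 (30.5 to 38.0) and 17.3 in C1 (6.94 to 35.5). Igha was highest in C1, at 104 CPM (74.6 to 140), against 4.25 in C3 and 6.08 in C4. Jchain was at 143, 0, 278 and 58.4 CPM from C1 to C4. In C2, Ighg1, Ighg2b, Ighg2c, Ighg3, Ighe, Igha and Jchain had 0 UMIs in the 14 B barcodes, each with an upper bound of 37.7 CPM.

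UMIs of these genes also occurred in barcodes of other classes. Barcodes with at least 50 but fewer than 200 UMIs, too few for most cells, were taken as a measure of free RNA. Whether they hold free RNA only was not tested. Igha in T barcodes was at 28.1, 6.41, 2.96 and 0 CPM from C1 to C4, below the 182, 78.9 and 226 CPM of the low-UMI barcodes of the first 3. Jchain in T barcodes was at 19.1, 6.69, 5.28 and 0.161 CPM, against 252, 169, 1070 and 58.3. The last value rests on few Jchain UMIs, as the low-UMI barcodes of C4 held 85736 UMIs in all. T barcodes of C1 without markers of other classes had Igha at 6.81 and Jchain at 7.38 CPM. The levels of both genes in T barcodes were thus below that background in each library where it had UMIs.

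Ighm differed from this. It was at 126 CPM in T barcodes of C1 and 51.3 in C2, against 26.3 and 11.1 CPM in low-UMI barcodes, which is 4.78 and 4.63 times as high. In T barcodes of C3 and C4 Ighm was at 137 and 193 CPM, above the levels of C1 and C2. The ratios to low-UMI barcodes there were 0.982 and 0.828. Ighm was also at 197 and 172 CPM in NK barcodes of C1 and C2, and at 154 and 143 CPM in macrophage barcodes. T barcodes of C1 without markers of other classes still had 83.2 CPM. The B barcodes of the same libraries were higher, at 651 and 624 CPM.

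NK barcodes of C1 carried Igha at 38.7 CPM, in 222 of 1062 barcodes (20.9%, median depth 6946.5 UMIs), with Jchain at 3.83 CPM. In low-UMI barcodes of the same library Igha was below Jchain, at 182 against 252 CPM. Ighd was at 18.0 CPM in NK barcodes of C1 (123 of 1062) and 15.1 in C2 (31 of 276), against 2.15 and 0.487 CPM in low-UMI barcodes. The low-UMI value of C2 rests on few Ighd UMIs. The part of doublets in the NK values was not tested. Pigr, the carrier of polymeric IgA, was at 158 CPM (over UMIs other than immunoglobulin) in unclassed barcodes of C1 and 254 in C2, against 0 in C3 and 1.36 in C4. It was found in 33 of 587 and 61 of 847 unclassed barcodes of C1 and C2. These are not free of immune cells, with the monocyte gene Ly6c2 at 267 and 714 CPM. T barcodes of C2 had Pigr at 10.1 CPM.

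The genes whose levels were most like those of 3 members were found by Spearman correlation over 21 combinations of class and library, leaving out immunoglobulin genes. These points share libraries and depth, and no test is given. For Jchain they were Iqcb1 (0.861), Pck2 (0.849), Prss16 (0.845), Eaf2 (0.836) and Cacna1s (0.836). For Igha they were Tmem150a (0.835), Jchain (0.817), Cpeb3 (0.788), Dyrk3 (0.779) and Iqcb1 (0.756). Jchain defined the plasma class, so its place in the order for Igha, and the order for Jchain itself, follow in part from the gate. For Ighm they were Gnl2 (0.899), Cebpz (0.869), Srsf3 (0.869), Mettl16 (0.864) and Dmac2 (0.855), none of them a listed B cell gene.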

How the data were processed

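Cells sorted for CD45 were profiled by single-cell RNA sequencing. The deposited values are raw UMI counts, and Cell Ranger 4 wrote them, per the file headers. The submitters' processing notes name Cell Ranger 6.1.2, STAR 2.7.10a and mm10. The labels' protocols name BD Rhapsody, and the design text names 10x. No per-sample column was left unused (0).

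Kept barcodes had 500 or more UMIs, 300 or more genes and no more than 10% of UMIs from mitochondrial genes. They were classed in a fixed order: plasma, B, T (Cd3d, Cd3e and Cd3g at least 3 UMIs together), macrophage (C1qa, C1qb and C1qc at least 5), NK (Ncr1 and Klrb1c at least 2) and unclassed. No doublet caller was run. CPM is UMIs per 1000000 of the class and library; comparisons of lists used CPM over UMIs other than immunoglobulin, with at least 20 UMIs in both groups together, and a count of 0 set to 3 as a bound. UMI counts are not scaled by gene length, so levels are not compared between genes. The code was tested on simulated data.

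Named genes were the 10 members, Iglc1, Iglc2 and Iglc3, the class markers, the 4 highest genes of each list in plasma and in B barcodes, and the 5 genes most like Jchain, Igha and Ighm. Fcer2a, Irf4, Creld2, Cxcr4, Itgb1 and Gzmk fall outside this rule and were chosen after their values were seen, as were the 2-fold counts and the division at 100 Jchain UMIs. The members and lists were chosen with earlier results of these data known. Python 3.11.15, numpy 2.4.6, scipy 1.17.1 and pandas 2.3.3 were used. The values of some genes are not reported here.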

Additional observations from a re-analysis of the deposited data

How the results depend on the processing

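No paired analysis was possible because each group has 1 sample and the libraries carry no group. Of the counts and shares under other gates and settings, 147 stayed within 1.5 times the count or within the counting interval of the share, and 7 did not. Asking for 2 in place of 3 Cd79 UMIs gave 31 B barcodes in C2 in place of 14. Asking for 20 Jchain UMIs in place of 50 gave 73 plasma barcodes in C3 in place of 46 and 9 in C4 in place of 5, and asking for 100 gave 0 in C4. Of B barcodes with a call, 12.2% were switched in C3 and 3.28% in C4. A lead of at least 2 times the next gene gave 4.51% in C4. Without B barcodes of 10 or more Jchain UMIs the shares were 7.82% and 2.25%, a setting chosen after seeing the data. IgA held 95.7% to 100% of plasma barcodes in C1 and 18.1% to 31.6% in C3, and IgG 65.8% to 68.9% in C3. Without barcodes that hold markers of another class, 31 of 69 levels left their counting interval. Of the 69, 8 moved by over 1.5 times, with ratios to the main level from 0.0519 to 2.35. Over UMIs other than immunoglobulin, 19 of the 69 left it, and Jchain in plasma barcodes of C1 was at 131661 CPM in place of 54866. The B calls rest on few heavy chain UMIs, and the 14 B barcodes of C2 and 5 plasma barcodes of C4 allow wide intervals only.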

Other observations

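Igkc UMIs in T barcodes were not spread evenly, and the splits given here were chosen after their values were seen. In C2, 856 of 3521 T barcodes (24.3%) held an Igkc UMI, at 79.8 CPM, against 4.29 CPM in macrophage and 1.37 CPM in NK barcodes. T barcodes with a UMI of Gzmk, a granzyme of cytotoxic cells, had 92.5 CPM against 30.6 without. In C3 the values were 117 CPM in the 1023 T barcodes with Gzmk, of which 37.4% held Igkc, against 9.23 CPM in the 6389 without, of which 3.94% held it. With Mki67 as the split, Igkc was at 81.7 against 79.2 CPM in C2 and 47.1 against 19.3 in C3.

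In C2 and C3 these Igkc UMIs came with few kappa variable gene UMIs. Of the Igkc barcodes, 785 of 856 in C2 and 454 of 635 in C3 had no such UMI. Kappa variable gene UMIs per Igkc UMI were 0.351 in T barcodes of C2 and 1.54 in C3, against 11.3 and 9.71 in plasma barcodes and 12.3 and 6.16 in B barcodes of the same libraries. C1 differed, with 13.7 in T barcodes against 9.91 in plasma barcodes, on 66 Igkc UMIs. There 23 of 46 Igkc barcodes had no kappa variable gene UMI. In T barcodes of C4 the value was 2.13, on 56 Igkc UMIs, and 33 of 33 had none. The cause was not tested.

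Fcmr, the receptor for IgM, was at 786, 483, 621 and 1063 CPM over UMIs other than immunoglobulin in B barcodes led by Ighm or Ighd of C1 to C4. It was at 173, 189 and 256 CPM in switched B barcodes of C1, C3 and C4, and at 0 UMIs in both plasma sets of C3. Tnfsf13b, which encodes the B cell survival factor BAFF, was at 175 CPM on the same scale in macrophage barcodes of C1 and 236 in C2. In the 20 macrophage barcodes of C3 it was at 5.36 CPM (0.136 to 29.9), from 1 UMI.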
